A study of Ovis aries with 6 samples.

Results

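miR-202 and the 6 miRNAs that lie in introns of the serotonin receptor gene HTR2C in other mammals (miR-1264, miR-1298, miR-448, miR-764, miR-1911 and miR-1912) were examined in small RNA libraries from sheep longissimus muscle. The members were chosen by name, after miR-202-5p and miR-1264-5p had been selected on their read counts, which are far higher in one breed than in the other. The difference between the breeds is therefore given here as a description, without a test. All 7 miRNAs had at least 1 row in the count table, 22 rows of 11161 and 14 names of 10430, none of them under a sheep name. Rows carry rat, mouse or human names and the sequence of that species, and where several rows shared a name the one with most counts over the 6 libraries was taken. There were 3 libraries of longissimus muscle from Qianhua Mutton Merino sheep (QHMM) and 3 from Small Tail Han sheep (STH), all kept under natural conditions. Age, sex and the identity of the animals are not in the labels, so that spreads and p-values concern these libraries and may be technical.

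miR-202 is best known from testis and ovary, where both of its arms are made. HTR2C is a receptor of neurons and of the choroid plexus, the epithelium that secretes cerebrospinal fluid, and in human and mouse it lies on the X chromosome. A miRNA in an intron is commonly cut from the transcript of its host gene, and its hairpin gives a 5p and a 3p arm, of which one is usually kept. Where these hairpins lie in sheep was not analysed here, since the rows carry names of other species.

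The sequences behind the counts are shown first, since the breed difference rests on a few of them. Capitals mark the seed, bases 2 to 8 from the 5′ end, by which a miRNA recognises its targets.
miR-202-5p, rat row, which held nearly all counts: tTCCTATGcatatacttct
miR-202-5p, mouse row: tTCCTATGcatatacttcttt
miR-202-5p, human row: tTCCTATGcatatacttctttg
miR-202-3p, rat row: aGAGGTATagcgcatgggaaa
miR-202-3p, human row: aGAGGTATagggcatgggaa
miR-1264-5p, mouse row: aGGTCCTCaataagtatttgtt
miR-1264-3p, mouse row: cAAATCTTatttgagcacctgt
The mouse and human rows of miR-202-5p began with the 19 nt of the rat row, without a difference, and ran 2 and 3 nt further. The rat row had 239 counts over the 6 libraries, the human row 3 and the mouse row 1, so the reads of the shorter sequence were not counted again at the longer ones. The rat and human rows of miR-202-3p differed by C11G, with positions counted from the 5′ end of the rat sequence. The rat row had 15 counts and the human row 3, all of them in STH replicate 3. No member row shared more than 12 nt in a run with any row outside the members. The seed TCCTATG of miR-202-5p occurred in no name outside the members, and the seed GGTCCTC of miR-1264-5p in 1 unnamed predicted locus with 4 counts in all. The seed GAGGTAT of miR-202-3p had 6 of 7 bases in common with GAGGTAG, the seed of 16 of 26 let-7 names. The exception was T8G, the last base of the seed. The seed was shared with let-7j and 1 predicted locus, which together had 71 counts.

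The 5p arm of miR-202 had 1, 0 and 1 counts in QHMM replicates 1, 2 and 3, and 71, 21 and 145 counts in STH replicates 1, 2 and 3. Every STH library lay above every QHMM library. In CPM, counts scaled to a common library total over 1 row per name, the mean of the 3 libraries was 0.0890 ± 0.0770 CPM (SD) for QHMM, compared with 10.5 ± 7.47 CPM (SD) for STH. The ratio of the summed shares, STH over QHMM, was 114, with an exact 95% counting interval of 31.1 to 945. When the 3 rows of this name were summed, QHMM had 2, 1 and 2 counts, STH had 71, 21 and 146, and the ratio was 45.7 (interval 19.3 to 142). The size of the fold thus hung on a few QHMM reads. The name was selected for its direction and the added rows hold few counts, so nothing is read from the separation staying. Intervals cover counting error only, and the STH libraries spread more widely than counting allows, with a chi-square per degree of freedom of 35.7 for miR-202-5p. STH replicate 3 held 5.37 times the CPM of STH replicate 2.

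The 3p arm of miR-202 was counted in STH libraries only. No read was counted in QHMM (0 in each library), and 4, 2 and 9 were counted in STH replicates 1, 2 and 3. The groups did not overlap. With QHMM set to a floor of 3 counts over its libraries, the share in STH was 4.80-fold that of QHMM. With the 3 rows of miR-202-3p summed it was 6.08-fold. These values follow from the floor and are not bounds, as 0 counts allow up to 3.69 counts (exact Poisson 95% limit). The order of the STH libraries, replicate 3 above 1 above 2, was that of the 5p arm. For the 3p arm the chi-square per degree of freedom was 1.82, against 35.7 for the 5p arm, so its order may be counting error. The 5p arm took 94.7% of the counts of both arms in STH replicate 1 (71 of 75, exact 95% interval 86.9% to 98.5%), 91.3% in replicate 2 (21 of 23, 72.0% to 98.9%) and 94.2% in replicate 3 (145 of 154, 89.2% to 97.3%). The arm share was therefore alike in the 3 STH libraries within these intervals, while the level of miR-202 was not.

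Among the miRNAs of HTR2C introns, miR-1264-5p alone stood out. It had 1, 0 and 0 counts in QHMM replicates 1, 2 and 3, and 14, 20 and 48 counts in STH replicates 1, 2 and 3. Every STH library lay above every QHMM library here too. The mean of the 3 libraries was 0.0442 ± 0.0765 CPM (SD) for QHMM, compared with 3.74 ± 2.11 CPM (SD) for STH. The ratio of summed shares was 78.7, with a counting interval of 13.7 to 3146. The other arm, miR-1264-3p, had 1 count, in STH replicate 1. The 5p arm thus took 82 of 83 counts of both arms in STH (98.8%, with an exact 95% interval that began at 93.5%).

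The other HTR2C miRNAs were near the limit of detection in both breeds. The 11 names other than miR-1264-5p had between 1 and 6 counts each over the 6 libraries. In QHMM replicates 1, 2 and 3 they summed to 1, 6 and 6 counts, and in STH to 5, 4 and 6, with overlapping libraries and a ratio of summed shares of 1.11 (interval 0.492 to 2.53). miR-1298-3p, the most counted, was counted 0, 1 and 1 times in QHMM against 3, 1 and 0 times in STH. For miR-764-3p it was 1, 0 and 2 counts against 1, 0 and 1. miR-764-5p had 0, 3 and 1 counts in QHMM and none in STH, where 0 counts over the 3 libraries allow up to 3.69 counts (exact Poisson 95% limit). miR-448-3p and miR-448-5p had 2 and 1 counts in all, miR-1911-3p and miR-1911-5p had 3 and 1, miR-1912 had 3, and miR-1298 and the human name miR-764 had 1 each. At this depth, where 1 count was worth 0.126 to 0.179 CPM, a breed difference in these names was not detectable within the intervals.

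**Figure D1:**
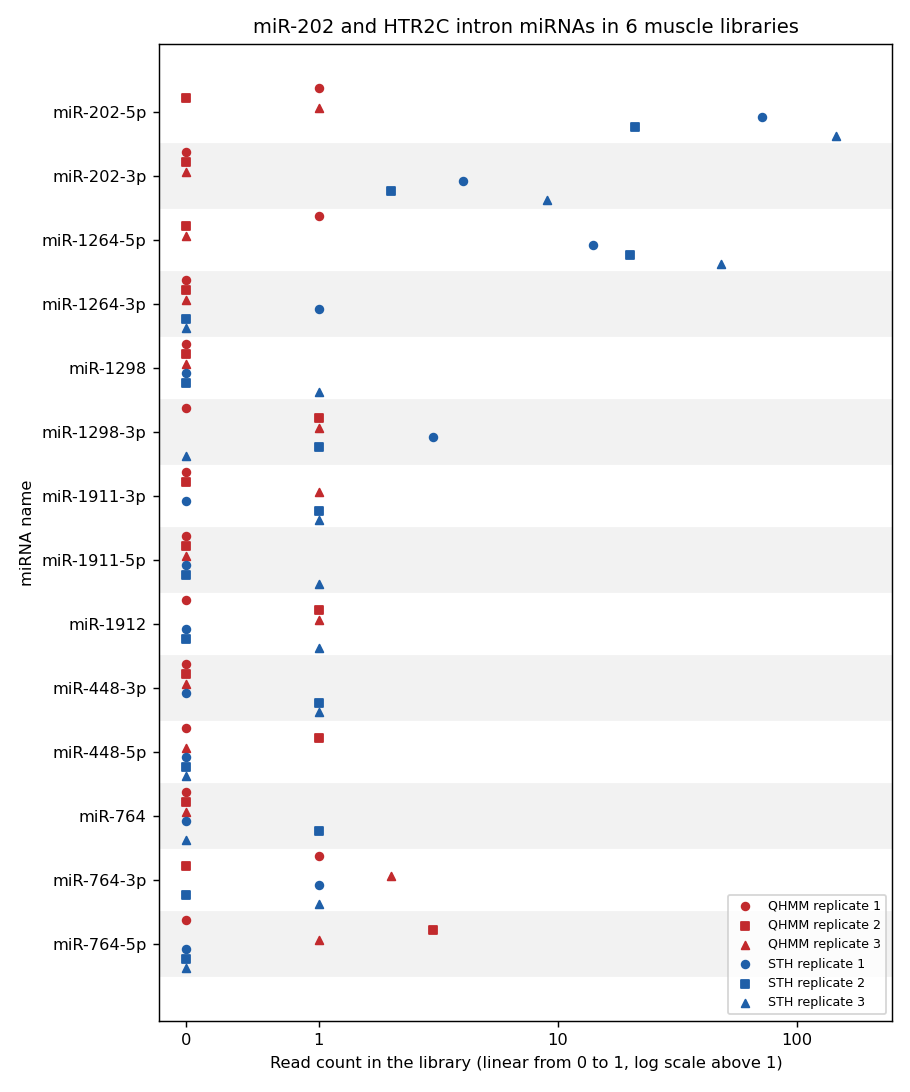
Read counts of the 14 member names (vertical axis) in each library (horizontal axis, linear from 0 to 1 and logarithmic above), with red for QHMM, blue for STH and the symbol for the replicate. The STH libraries lie apart from QHMM for miR-202-5p (21 to 145 against 0 to 1), miR-202-3p (2 to 9 against 0) and miR-1264-5p (14 to 48 against 0 to 1), and the other names lie between 0 and 3.

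Of the 14 names, 3 had every STH library above every QHMM library and 0 the reverse. The first held for 5.26% of the 9972 names with a count, and since the members were chosen on this contrast nothing is read from the comparison. Only miR-202-5p and miR-1264-5p passed the filter on low counts, which they did through STH, and the other 12 names entered no fit. In the edgeR fit over 1274 names, the fitted log2 fold changes, QHMM over STH, were -6.52 (standard error 0.80) for miR-202-5p and -5.85 (standard error 0.84) for miR-1264-5p, against a median of 0.031 over all names fitted. With so few QHMM reads these values depend on the prior count and are not bounds. In STH, miR-202-5p ranked 518th and miR-1264-5p 833rd of 10430 names by mean CPM, and miR-202-3p 1680th.

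**Figure D2:**
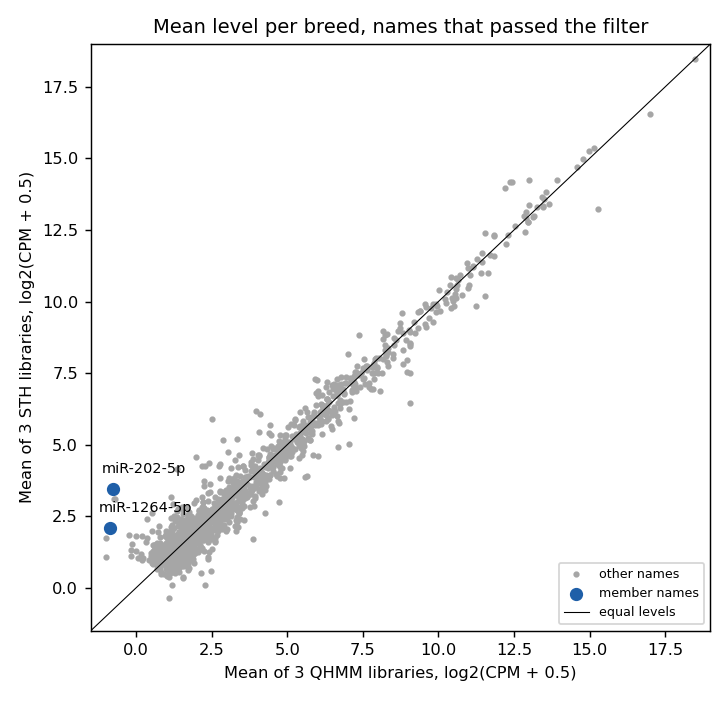
Mean level of each of the 1274 names that passed the filter in the 3 QHMM libraries (horizontal) and the 3 STH libraries (vertical), both as log2(CPM + 0.5), with the line of equal levels. Both member names that passed, miR-202-5p and miR-1264-5p, lie near the left edge, above the line of equal levels.

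The 2 abundant members ordered the STH libraries differently. miR-202-5p was lowest in STH replicate 2 and miR-1264-5p in STH replicate 1, and both were highest in replicate 3. The lowest place of replicate 1 for miR-1264-5p rests on 14 counts against 20 in replicate 2, and no interval was calculated for it. Of the counts of both names, miR-202-5p took 83.5% in STH replicate 1 (71 of 85, exact 95% interval 73.9% to 90.7%), 51.2% in replicate 2 (21 of 41, 35.1% to 67.1%) and 75.1% in replicate 3 (145 of 193, 68.4% to 81.1%). The interval of replicate 2 did not overlap that of either other library. The mix of miR-202-5p and miR-1264-5p thus differed between STH libraries by more than counting error, with no replicate of a library to gauge other error.

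Names most like the members were sought by Pearson correlation of log2(CPM + 0.5) over the 6 libraries, which share the breed split, among 1272 other names. For miR-202-5p the 5 nearest were a predicted star locus on chromosome 21 (chr21_38493_star, r = 0.981), another on chromosome X (chrx_45480_star, r = 0.977), miR-449a-5p (r = 0.965), a second locus on chromosome X (chrx_45982_mature, r = 0.964) and miR-3607-3p (r = 0.964). For miR-1264-5p they were loci on chromosomes 13 (chr13_28252_mature, r = 0.997), 2 (chr2_4552_mature, r = 0.983) and 19 (chr19_36378_star, r = 0.982), miR-34b-5p (r = 0.976) and miR-449a-5p (r = 0.974). miR-449a-5p was the name common to both. Between miR-202-5p and miR-1264-5p themselves r was 0.948. The locus on chromosome 2 had 0, 2 and 0 counts in QHMM against 28, 40 and 111 in STH. Other neighbours were well counted in QHMM. Of these, miR-34b-5p (115, 71 and 133 counts in QHMM) was called with edgeR (adjusted p = 0.00087). Not called were the star locus on chromosome 21, chrx_45480_star, miR-3607-3p and chr19_36378_star. The star locus on chromosome 21 had 29, 25 and 30 counts in QHMM against 57, 39 and 68 in STH. For chrx_45480_star it was 19, 14 and 15 against 43, 28 and 74, and for miR-3607-3p 20, 16 and 21 against 39, 32 and 45. Among the names nearest to either member, 2 predicted loci had no count in QHMM, and their sheep sequences are shown for that reason.
chrx_45982_mature: tGATTGGTacttcttagagtg
chr13_28252_mature: tGTGATTAgattgggcc
The first had 0 counts in each QHMM library and 12, 9 and 14 counts in STH replicates 1, 2 and 3, and the second 0 and 12, 16 and 35. A high correlation here says mainly that a name was higher in STH, as 25 names exceeded 0.9 with miR-202-5p and 31 with miR-1264-5p.

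Marker miRNAs of other tissues were counted in the same libraries. Their part in the levels of the members was not tested, and more RNA of another cell type cannot be told apart in bulk tissue from more of a miRNA per cell. The label of muscle held, with miR-133 at 113352 CPM and miR-206-3p of muscle fibres at 35912 CPM on average. miR-34b, miR-34c and miR-449, which are made in ciliated epithelia and male germ cells, were higher in STH as a sum, though not in every name. This list had 10 names, which summed to 24.1 to 32.5 CPM in QHMM and 111 to 151 CPM in STH, and 4 of its 4 names past the filter were higher in STH (edgeR quasi-likelihood test, Benjamini-Hochberg adjusted p under 0.05, a call that 1.88% of all names tested met). miR-449a-5p was counted 1, 1 and 0 times in QHMM against 52, 41 and 82 times in STH, and its fitted log2 fold change was -6.14 (adjusted p = 0.00016 in edgeR, standard error 0.62). miR-34c-5p was at -2.38 (adjusted p = 0.0013 from edgeR), miR-34b-5p at -2.24 (0.00087) and miR-34b-3p at -1.60 (0.0471). The last lost the threshold in 7 of 14 alternatives, where its adjusted p ran up to 0.184. In 7 of the 10 names every STH library lay above every QHMM library, where 5.26% of all names with a count did. The 4 names past the filter were known to differ when the list was written, so nothing is read from these shares. Unlike the members, miR-34b-5p and miR-34c-5p were well counted in QHMM (115, 71 and 133 counts, and 37, 38 and 64). In STH, miR-34c-5p stood at 35.4 ± 2.01 CPM (SD over 3 libraries). Among the STH libraries miR-449a-5p stood at 8.03 ± 2.02 CPM (SD over 3 libraries), against 10.5 ± 7.47 CPM for miR-202-5p.

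The X-linked cluster of miRNAs made in testis gave few counts. Of its 26 entries 20 had a row, giving 31 names that summed to 2.02 to 2.51 CPM in QHMM and 2.75 to 3.66 CPM in STH. The sums did not overlap, but 1 count was worth 0.126 to 0.179 CPM and no counting interval was calculated for them. None of the 31 names passed the filter, so none was tested. Without any count in QHMM were 10 of these names and without any in STH 9, so that the absence of a name was about as common in either breed. In 3 of the 31 names every STH library lay above every QHMM library, where 5.26% of all names with a count did. They were miR-508-5p (0, 0 and 0 counts against 4, 2 and 7), miR-880-5p (0, 0 and 0 against 2, 3 and 4) and miR-878-3p (0, 0 and 1 against 1, 3 and 2), the last named after its values were seen. For miR-878-3p, QHMM replicate 3 and STH replicate 1 had 1 count each. They differed only through the library totals, which made it 0.134 and 0.137 CPM. The most counted name, miR-513a-5p, was counted 9, 8 and 3 times in QHMM against 5, 3 and 3 times in STH.

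Lists of neurons and of other epithelia overlapped between the breeds. The 16 names of neurons summed to 8.07 to 16.2 CPM in QHMM and 10.7 to 15.4 CPM in STH. Of their 4 names past the filter 0 were called with edgeR, 0 with DESeq2, and 0 had an unadjusted p under 0.05. miR-9a-5p was counted 28, 11 and 22 times in QHMM against 23, 14 and 30 times in STH, and miR-129-2-3p and miR-219a-5p followed in abundance at 2.07 and 1.66 CPM. For the choroid plexus and pigment epithelium, miR-204 and miR-211 summed to 18.1 to 74.6 CPM in QHMM and 26.0 to 29.3 CPM in STH, and 0 of 2 names past the filter were called with edgeR or DESeq2. Of these 0 had an unadjusted p under 0.05. miR-204-5p, the main name, was at 0.78 on the log2 scale (adjusted p = 0.417 in edgeR, standard error 0.40), and miR-211-5p at -0.095 (0.952). The third name, miR-204-3p, stood at 1.12 CPM on average and did not pass the filter. The epithelium list of the miR-200 family and others summed to 5.74 to 37.0 CPM in QHMM and 7.45 to 34.8 CPM in STH. In it 1 of 25 names passed the filter, miR-200a, at 0.12 (adjusted p = 0.963 from edgeR), and miR-205 and miR-200b followed at 1.65 and 1.49 CPM.

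The 69 names of other X chromosome miRNAs summed to 6489 to 9453 CPM in QHMM and 5623 to 7501 CPM in STH, with overlapping libraries. Of 40 names past the filter 0 were called with edgeR and 0 with DESeq2, while 6 had an unadjusted p under 0.05, which 13.7% of all names tested had. In 6 of the 69 names every QHMM library lay above every STH library, where 2.4% of all names with a count did, and in 0 the reverse. Most names with a count were too rare to pass the filter, unlike most of this list, so nothing is read from that comparison. Their median log2 fold change was 0.080, against 0.031 over all names. The 3 most abundant were miR-322-5p (log2 fold change 0.23, adjusted p = 0.784 from edgeR), miR-660-5p (0.64, 0.268) and miR-652-3p (-0.092, 0.907). Of the 16 names of the muscle fibre list, 13 passed the filter, and 2 were higher in QHMM, a call that 0.314% of all names tested met: miR-208b-3p (1.27, adjusted p = 0.0419 in edgeR) and miR-499-3p (1.35, 0.0419). None was called higher in STH. miR-499-5p, the third most abundant of the list, was at 1.35 as well, with an adjusted p of 0.0782 in edgeR. The 2 more abundant names were miR-133 (0.43, adjusted p = 0.329 in edgeR) and miR-206-3p (-0.27, 0.582). In 4 of the 16 names every QHMM library lay above every STH library, and in 2, miR-206-3p among them, the reverse held. These shares are likewise not read against those of all names with a count. miR-208b-3p and miR-499-3p each lost the call in 9 of 14 alternatives. The most abundant miR-1 name, miR-1b (mean 366295 CPM in QHMM and 365035 CPM in STH), is not in this list. The list holds miR-1-3p at 392 CPM on average (-0.58, adjusted p = 0.507 in edgeR).

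**Figure D3:**
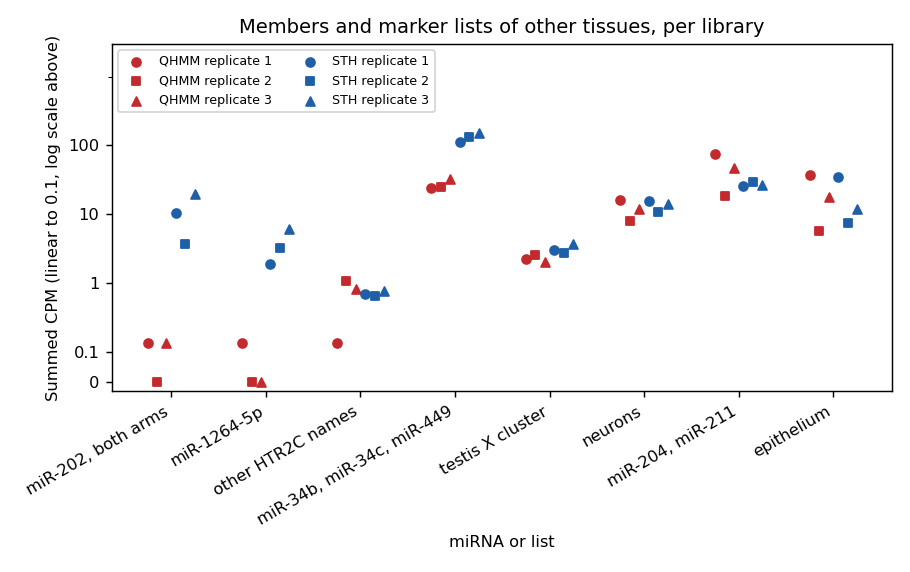
Summed CPM per library (vertical, linear to 0.1 and logarithmic above) of miR-202, miR-1264-5p, the other HTR2C names and 5 marker lists of other tissues, with red for QHMM, blue for STH and the symbol for the replicate. The breeds lie apart for miR-202, miR-1264-5p, the list of miR-34b, miR-34c and miR-449 (24.1 to 32.5 against 111 to 151 CPM) and, by less, the testis X cluster (2.02 to 2.51 against 2.75 to 3.66 CPM), and overlap for the other HTR2C names, neurons, miR-204 with miR-211 and epithelium. For the testis X cluster the gap rests on few counts, and no counting interval was calculated.

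Most members had few counts at the depth of these libraries, and the part of depth in this was not tested. Total counts over all rows ran from 8062231 to 10276427 in QHMM and from 8681817 to 11282332 in STH, of which 5572865 to 7930202 per library remained with 1 row per name. More names had a count in each STH library (5353 to 6721) than in any QHMM library (4326 to 5187), and the part of this in single counts of rare members was not tested. The 14 members together took 0.398, 1.08 and 0.940 CPM in QHMM replicates 1, 2 and 3 and 12.8, 7.61 and 26.2 CPM in STH replicates 1, 2 and 3.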

How the data were processed

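Gel-selected small RNA of 3 QHMM and 3 STH longissimus libraries was read on an Ion Proton. The counts that the authors deposited are raw reads for each mature sequence, under miRNA names of sheep, rat, mouse or human, or under predicted loci. Oar_v3.1 and DESeq appear in the submitters' processing notes. Aligner, caller and the treatment of reads with several matches were not given in the sources used here. Rows were named without species prefix or locus name, and of rows sharing a name the one with most counts was taken. CPM are counts over the total of these rows. QHMM and STH were contrasted by the quasi-likelihood test of edgeR 4.0.16 (R 4.3.3) after filterByExpr, with TMM factors of 0.894 to 1.11 and no covariate. Names with a Benjamini-Hochberg adjusted p under 0.05 were called, and DESeq2 1.42.0 was an alternative. Exact Poisson, binomial and conditional intervals at 95% were calculated with scipy 1.17.1, and correlations used a pseudocount of 0.5 CPM. No libraries of a breed agreed within sampling noise (chi-square per degree of freedom of at least 80.3). The members and lists were chosen with earlier results of these data known. Of each list the 3 most abundant names and every name called are given, and the 5 names nearest to each abundant member.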

Additional observations from a re-analysis of the deposited data

How the results depend on the processing

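The count of names that differed between the breeds, 28, was 64 with no filter on low counts, 49 with DESeq2, 6 with known names only and 8 where 10 counts were required of each library (both test fewer names). It was 16 to 35 with each library left out (16 without QHMM replicate 3, 18 without STH replicate 2, 16 without STH replicate 3). The fitted log2 fold change of miR-202-5p kept its sign in 13 of 13 alternatives, between -6.93 and -5.36, the latter with rows of 1 name summed, which adds 3 QHMM counts. That of miR-1264-5p also kept its sign in 13 of 13, from -7.70 to -5.34 with each library left out. Its lowest value came without QHMM replicate 1, which holds the single QHMM count. Since both were chosen for this difference, the kept sign is no sign of stability. Neither could be fitted where 10 counts were required of each library, and rows fitted one by one were not matched to names. The members' sum in STH, 15.6 CPM, was 4.14 CPM with the row of the lowest total for each name and 10.2 CPM without STH replicate 3, and that in QHMM ran from 0.478 to 1.12 CPM. Of the miR-34 and miR-449 names, 2 in place of 4 were called with at least 10 counts in every library. Of the muscle fibre names, 2 in the fit reported, 0 were called higher in QHMM with known names only, with the replicate block, with upper-quartile factors and where 10 counts were required of each library, and 0 to 2 with each library left out (1 without QHMM replicate 1, 0 without QHMM replicate 3 or any STH library).

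With the replicate number as a block (replicate block), 26 names were called, and the log2 fold changes were -6.60 for miR-202-5p and -5.78 for miR-1264-5p. Deviations of like-numbered libraries had correlations of 0.061, 0.24 and 0.12, not all over 0.1, so that they may share only a number. For the 12 member names with few counts, the part of depth was not tested.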
